A study of Mus musculus with 20 samples.

Results

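The 6 genes Grin1, Grin2a, Grin2b, Grin2c, Grin2d and Grin3a encode subunits of the NMDA receptor, and they were chosen by their symbols in the deposited gene table, in which they are 6 of 48709 genes. RNA was measured by sequencing in the hippocampus of 20 young adult C57BL/6 mice (C57BL/6J in the study's methods), the offspring of dams that breathed either filtered air (control) or nPM, nano-sized particulate matter collected from urban air. Exposure began on gestational day 2 and ran 5 hours a day on 3 days a week until birth, at a dose that the labels give as 300 mg/m3 and the study's methods give as 300 μg/m3. Each of the 4 groups held 5 samples. By the study's methods the adult offspring came from 5 litters for each exposure, so some of these mice may share a litter. The labels name no litter, and no fit took litters into account. Control females were 17.71 to 18.29 weeks old and nPM females 18 to 18.29 weeks, while control males were 18.57 to 19.14 weeks old and nPM males 18.86 to 19.14 weeks. By the study's methods all males, control and nPM, had also received EdU, a thymidine analog that marks dividing cells, so sex, age and EdU cannot be told apart in these samples. Total counts of female samples ran from 22307445 to 35480715 for controls and from 19092067 to 29252770 for nPM, and those of male samples from 28026459 to 38663408 for controls and from 31189000 to 37378472 for nPM.

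NMDA receptors are glutamate-gated cation channels that pass calcium once glutamate and a co-agonist, glycine or D-serine, are bound and depolarization has lifted a block by magnesium. In the hippocampus they are known for starting long-term potentiation and depression at synapses onto pyramidal cells and granule cells. A receptor joins GluN1 subunits, which bind the co-agonist, with GluN2 subunits, which bind glutamate and set how fast the channel closes, and in some cells with GluN3 subunits.

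Grin1 encodes GluN1, the subunit that functional NMDA receptors share. Grin2a and Grin2b encode GluN2A and GluN2B, the main glutamate-binding subunits of the adult forebrain, with GluN2B leading early in life and GluN2A rising after birth. Grin2c and Grin2d encode GluN2C and GluN2D, whose receptors are blocked less by magnesium, GluN2C being best known from cerebellar granule cells and GluN2D from interneurons and diencephalon. Grin3a encodes GluN3A, a glycine-binding subunit that lowers calcium entry and is most abundant in the young brain. On the mm10 (GRCm38) build all 6 genes are on the minus strand. Grin1 (ENSMUSG00000026959.13) is at chr2:25291181-25319187, Grin2a (ENSMUSG00000059003.12) at chr16:9567898-9995560 and Grin2b (ENSMUSG00000030209.14) at chr6:135713233-136173511. Grin2c (ENSMUSG00000020734.13) is at chr11:115249169-115267243, Grin2d (ENSMUSG00000002771.12) at chr7:45831883-45878378 and Grin3a (ENSMUSG00000039579.15) at chr4:49661611-49845744.

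The stretch that codes for the end of the third membrane segment, which forms the gate of the channel, is printed for Grin1, the shared subunit, and for Grin2c, a glutamate-binding subunit, since both recur in the comparison of the sexes. Capitals mark the 7 codons of the conserved gate motif of ionotropic glutamate receptors, and 10 codons stand on each side of it. The sequences are the coding strand, 5′ to 3′, from the longest coding transcript of each gene in Gencode M21 on mm10, and each lies within 1 exon on the minus strand. They are at chr2:25297172-25297252 in exon 15 of 21 of Grin1 and at chr11:115253722-115253802 in exon 11 of 15 of Grin2c.
Grin1: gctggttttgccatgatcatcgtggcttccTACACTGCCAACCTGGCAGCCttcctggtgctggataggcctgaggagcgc
Grin2c: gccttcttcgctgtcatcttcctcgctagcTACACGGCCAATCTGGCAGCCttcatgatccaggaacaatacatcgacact

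The coding parts were 959 codons in Grin1, 1464 in Grin2a, 1482 in Grin2b, 1239 in Grin2c, 1323 in Grin2d and 1135 in Grin3a. The members fell apart in base composition: GC was 59.4% in Grin1, 62.1% in Grin2c and 65.0% in Grin2d, but 44.8% in Grin2a, 45.7% in Grin2b and 49.2% in Grin3a.

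Markers of the labelled tissue were present in every library. In CPM, the counts of a gene scaled to library size, the summed level ran from 217 to 354 CPM over 4 CA1 markers, from 92.1 to 169 CPM over 4 CA3 markers and from 300.4 to 743 CPM over 6 dentate gyrus markers, with none of these genes at 0 in any sample. Some libraries stood apart. In nPM female 4 the genes annotated as antisense summed to 3087 CPM, against 1284 to 2000 CPM in the other libraries, and log2 levels fell by 0.42 for each 10% of GC, against slopes of -0.17 to 0.22 elsewhere. That library also had the lowest total count, 19092067. In control male 1 the sum of 3 cerebellar markers was 28.6 CPM, against 0.344 to 1.82 CPM in the other libraries, and the oligodendrocyte sum was the lowest, 2335 CPM. The comparisons are therefore also given without control male 1 and nPM female 4. In nPM male 1 the sum of 6 thalamic markers was 205 CPM, against 61.9 to 156 CPM elsewhere. In nPM female 1 the sum of 6 striatal markers was 270.5 CPM, against 35.1 to 103 CPM elsewhere. Choroid plexus markers varied widely within every group, from 32.6 to 8280 CPM over 8 genes, with Ttr the most abundant.

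All 6 members passed the filter on low counts, which kept 19797 genes. Levels were compared between genes only per length, as RPKM, which scales reads to exon length and library size (from the counts, the deposited gene lengths and TMM library sizes). Grin2b had the highest level, 57.6 ± 9.22 RPKM (SD, n = 20), followed by Grin2a at 52.1 ± 7.97 RPKM. Grin1 was at 27.1 ± 3.98 RPKM. Grin2c was at 4.57 ± 0.981 RPKM, Grin3a at 3.50 ± 1.11 RPKM and Grin2d at 0.570 ± 0.239 RPKM. The GluN2 genes of the adult forebrain and Grin1 thus made up most of the receptor RNA, and the GluN2C, GluN2D and GluN3A genes little of it. Among all genes tested these levels ranked at percentile 97.1 for Grin2b, 96.7 for Grin2a, 92.0 for Grin1, 57.1 for Grin2c, 50.9 for Grin3a and 18.8 for Grin2d.

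Neighbours in this order were not all apart. Grin2b exceeded Grin2a in 15 of 20 samples, by less than the spread of either. Grin2c exceeded Grin3a in 16 of 20 samples, also within about their spread. Grin2a exceeded Grin1, Grin1 exceeded Grin2c and Grin3a exceeded Grin2d in 20 of 20 samples. Part of this order rested on the lengths used. With the longest coding transcript in place of all exons of the gene, Grin1 was at 61.5 RPKM, Grin2a at 63.8 RPKM and Grin2b at 59.5 RPKM, so these 3 no longer differed beyond their spread, and Grin2b exceeded Grin2a in 6 of 20 samples. With that length Grin3a, at 5.73 RPKM, stood above Grin2c, at 4.70 RPKM, within about their spread. Grin2c then exceeded Grin3a in 8 of 20 samples, and Grin2d stayed lowest at 0.699 RPKM.

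**Figure D1:**
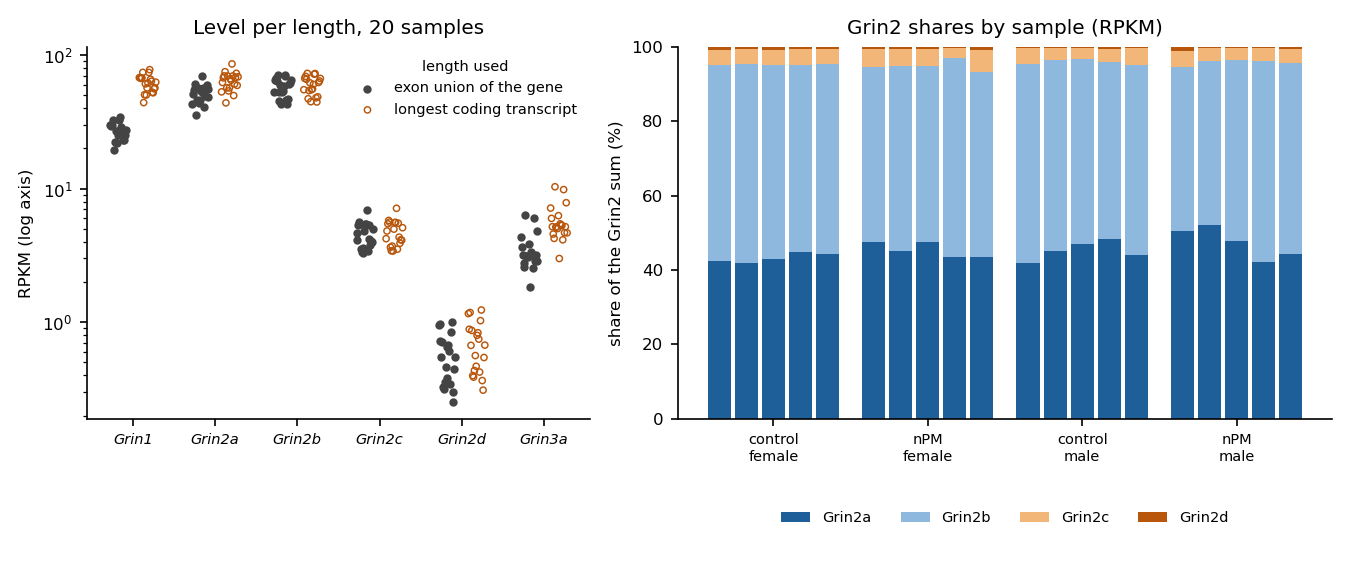
Left, the level of each member in the 20 samples in RPKM on a log axis, with exon length of the gene (filled) and with the longest coding transcript (open) as length. Right, the share of each Grin2 gene in the Grin2 sum (percent of RPKM) in every sample; Grin2a and Grin2b together fill most of each bar, and Grin2d is a thin top layer.

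The seventh gene of the family, Grin3b, which encodes GluN3B and is known from motor neurons, was outside the members and below the filter, with 0 to 6 counts in a sample and a mean of 0.0245 RPKM. Summed over the 6 members the level was 145 ± 19.2 RPKM (SD, n = 20). The 4 AMPA receptor genes, which carry the fast part of glutamate transmission, summed to 311 ± 30.6 RPKM with Gria1 the highest. The 5 kainate receptor genes summed to 46.7 ± 5.91 RPKM with Grik2 the highest. These sums used all exons of each gene as length. The AMPA and kainate sums were not computed with the longest coding transcript, a length with which Grin1 alone rose to 61.5 RPKM.

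Within the GluN2 pool the shares of the abundant subunits varied less relative to their mean (SD of 6.32% of the mean for Grin2a and 5.84% for Grin2b) than those of the rare ones (18.1% for Grin2c and 46.2% for Grin2d). Grin2a held 45.4% ± 2.87 (SD, n = 20) of the summed RPKM of the Grin2 genes, with a range of 42.0% to 52.0%. Grin2b held 50.1% ± 2.92, with a range of 44.1% to 54.0%. Grin2c held 3.995% ± 0.723, with a range of 2.61% to 5.75%, and Grin2d held 0.506% ± 0.234, with a range of 0.203% to 1.03%. With the longest coding transcript as length these shares became 49.6% for Grin2a and 46.2% for Grin2b, so which of the pair led was set by the length used. The ratio of Grin2a to Grin2b, a measure that is known to climb as the forebrain matures, was 0.836 ± 0.0439 in control females and 0.920 ± 0.0858 in nPM females (SD, n = 5). Males had 0.900 ± 0.0867 in controls and 0.992 ± 0.172 after nPM. The nPM means lay above the control means in both sexes, and the groups overlapped. The gap in females was about the SD of the nPM females and larger than that of the control females. In males it was about the SD of the controls and smaller than that of the nPM males. Among females the ratio of Grin1 to the Grin2 sum was 0.248 ± 0.0262 for controls and 0.254 ± 0.0338 for nPM samples, and among males it was 0.230 ± 0.0109 for controls and 0.218 ± 0.0136 for nPM samples. These male and female values also overlapped. Ratios and shares were not tested, being scores over the members.

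In each sample the members were then read in CPM, a level that can be compared between samples for 1 gene but not between genes. Grin1, the shared subunit, was at 289.9, 289.8, 286, 289 and 318 CPM in the control females and at 264, 317, 333, 282 and 272 CPM in the nPM females. It was at 189, 216, 260.5, 215 and 243 CPM in the control males and at 225, 223, 239, 243 and 268 CPM in the nPM males. Every control male lay below every control female, whereas the nPM males and nPM females overlapped at 268 CPM against 264 CPM. The lowest of the 20 values was control male 1. Counts behind these values were 5062 to 10388 in a sample.

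Grin2a, the mature GluN2 subunit, was at 777, 914, 989, 1023 and 1099.5 CPM in the control females and at 974, 949, 1258, 1022 and 729 CPM in the nPM females. It was at 642, 833, 1022, 789.6 and 832 CPM in the control males and at 889, 996, 1069, 869 and 1007 CPM in the nPM males. All 5 nPM males lay above the median control male, but control male 3 lay above all nPM males except nPM male 3, and control male 1 was the lowest of the 20. The female groups overlapped throughout. Grin2b, which carries the slower GluN2B current, ran from 1326 to 1757 CPM among control and 1153 to 1751 CPM among nPM females. Male controls ran from 1078 to 1493 CPM and male nPM samples from 1073 to 1609 CPM. Every group of Grin2b overlapped every other.

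Grin2c, a subunit with weak magnesium block, was at 20.7, 23.6, 26.7, 28.3 and 27.5 CPM in the control females and at 27.3, 27.4, 34.9, 17.2 and 27.0 CPM in the nPM females. It was at 17.8, 16.8, 18.2, 16.7 and 24.4 CPM in the control males and at 21.2, 19.1, 20.3, 20.1 and 25.0 CPM in the nPM males. All 10 males lay below the median of the females of the same exposure, but the ranges overlapped, with control female 1 and nPM female 4 low and the fifth male of each exposure high. In GluN2D's gene, Grin2d, levels were 6.30, 4.81, 6.42, 3.64 and 4.71 CPM in the control females and 4.33, 4.53, 4.06, 2.30 and 5.58 CPM in the nPM females. They were 2.16, 2.11, 2.36, 3.05 and 2.54 CPM in the control males and 6.70, 1.98, 1.68, 2.95 and 3.66 CPM in the nPM males. Every control male lay below every control female, while among the nPM males the first was the highest of all 20 samples and the rest were at or under 3.66 CPM. These levels rested on 42 to 253 counts in a sample, the fewest of the 6 members.

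Grin3a, the subunit that damps calcium entry, was at 53.6, 44.9, 38.9, 34.25 and 31.8 CPM in the control females and at 22.5, 40.8, 40.1, 39.7 and 31.0 CPM in the nPM females. It was at 77.4, 38.7, 38.7, 37.6 and 47.0 CPM in the control males and at 73.7, 35.1, 38.9, 58.8 and 35.0 CPM in the nPM males. The highest values, in control male 1, nPM male 1 and nPM male 4, were all from males, and the other males lay among the females.

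**Figure D2:**
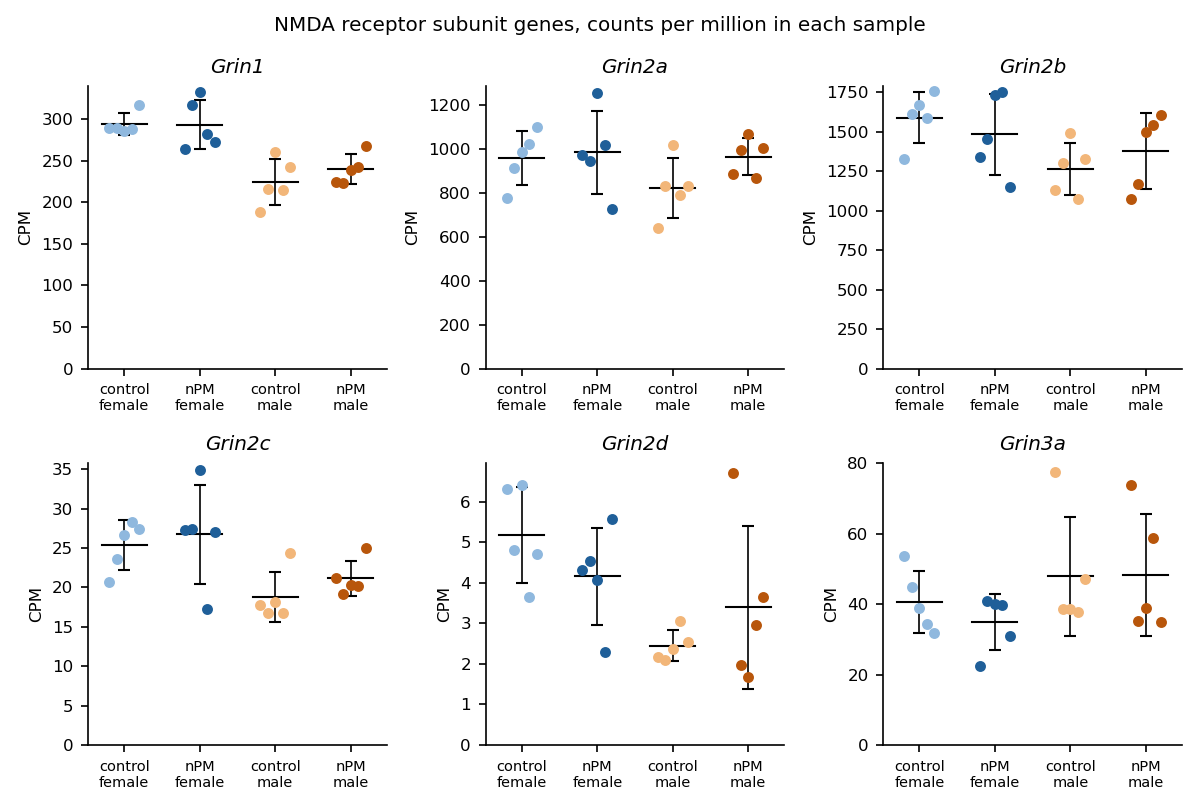
CPM of each member in every sample by group (points; n = 5 a group), with the group mean (line) and SD (bars), on axes that start at 0. Control males sit below control females for Grin1 and Grin2d, nPM and control samples of each sex overlap for all 6 genes, and 1 nPM male stands far above the other nPM males for Grin2d.

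Within groups the members varied to unlike degrees. The pooled SD on the log2 scale was 0.13 for Grin1, at percentile 17.1 of all genes tested, 0.22 for both Grin2a and Grin2b, and 0.25 for Grin2c, near the median gene at 0.26. It was 0.41 for Grin3a and 0.50 for Grin2d, at percentiles 69.0 and 77.4. After group means were removed, Grin1, Grin2a and Grin2b varied together over the 20 samples, with Pearson r of 0.67 for Grin1 and Grin2a, 0.67 for Grin1 and Grin2b and 0.72 for Grin2a and Grin2b, given as a description. The 2 samples farthest from the median left out, these were 0.50, 0.65 and 0.64. The most negative r was -0.48, for Grin2b and Grin2d, and it was -0.20 without the 2 farthest samples. These samples share tissue, laboratory and sequencing site, and base composition differs between the genes as given above.

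Several annotated genes overlap the members, and the strand setting of the read counting is not given. Grin1os, antisense to Grin1, had 282 counts in nPM female 4, 32 in control male 1 and 0 to 7 in the other samples. Of the genes antisense to Grin2b, Gm14329 had 77 counts in nPM female 4 and Gm22892 had 56, both with a median of 0 over the samples. Kdelr1, on the other strand at the 5′ end of Grin2d, held 654% as many counts as Grin2d, and Gm45441 at its 3′ end held 38.3% as many. How far reads of these genes reach the members' counts was not tested. Grin2a overlaps no other annotated gene.

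The first comparison asked whether exposure in the womb went with a lasting difference in the adult hippocampus, with both sexes in the fit and sex as a covariate. No member passed either threshold. By limma-voom, 0 of 6 members had p under 0.005, the study's threshold, against 0.141% of all genes tested (28 of 19797). At an unadjusted p under 0.05 the count was 0 of 6 members, against 2.10% of all genes, and edgeR and DESeq2 also gave 0 of 6 at both levels. With certain samples left out 1 member had an unadjusted p under 0.05 by limma-voom: Grin2c at 0.20 without nPM female 4 (adjusted p = 0.9999) and at 0.18 without control male 1 and nPM female 4 (adjusted p = 0.9997), and Grin2a at 0.19 without nPM female 5 (adjusted p = 0.9998). No gene of the 19797 had an adjusted p under 0.05 by limma-voom, edgeR or DESeq2. The difference nPM minus control on the log2 scale was 0.05 for Grin1 (95% interval -0.07 to 0.17). It was 0.13 for Grin2a (-0.06 to 0.32), with 7 of 10 nPM samples above the control median of their sex. For Grin2b it was 0.00 (-0.19 to 0.19). Grin2c differed by 0.13 (-0.08 to 0.33), with 9 of 10 nPM samples above the control median of their sex. Grin2d differed by -0.03 (-0.46 to 0.41) and Grin3a by -0.11 (-0.46 to 0.23). Without control male 1 Grin1 was at 0.014 and Grin3a at -0.031, and without nPM male 1 Grin3a was at -0.21. Of the 95% intervals that of Grin1 was the narrowest, and those of Grin2d and Grin3a were the widest. The sign for Grin2d was unsettled: edgeR and DESeq2 both gave 0.08, and limma-voom gave 0.04 without control male 1 and nPM female 4.

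In males alone, 0 of 6 members had p under 0.005 by limma-voom, against 0.207% of all genes (41). Grin2a had the smallest p of the members. Its nPM males were higher by 0.24 on the log2 scale (95% interval 0.01 to 0.48), with an unadjusted p of 0.0459 and an adjusted p of 0.963 over all genes. At p under 0.05 it was the 1 member of 6, against 4.28% of all genes, DESeq2 also counted 1 and edgeR counted 0. By limma-voom the count was 0 with sample quality weights, in 1 fit of the 4 groups and without control male 1, among others. With the GC trend of each sample removed it was 0 too, and with replicate number as a block it was 2. By the two-sided exact permutation test of the difference in mean log2 CPM, also 0.24, p was 0.0635 for Grin2a, where the smallest possible p is 0.00794. Without control male 1, the lowest Grin2a sample, the difference was 0.16. In males the median log2 difference was 0.31 for markers of CA1, 0.31 for thalamus, 0.23 for dentate gyrus and 0.21 for oligodendrocytes. It was 0.04 for CA3, -0.06 for 6 neuron markers, -0.29 for neocortex and -0.37 for choroid plexus. For the 2 cerebellar markers tested, which were highest in control male 1, it was -1.44. The remaining lists lay between -0.07 (astrocytes) and 0.01 (endothelial cells). Each of these lists held 0 genes at p under 0.005. Their part was not tested. By limma-voom Grin1 differed by 0.10 (0.040 without control male 1), Grin2b by 0.11 (0.044 without nPM male 5) and Grin2c by 0.17 (0.10 without nPM male 5 and 0.28 without control male 5). The differences in mean log2 CPM were 0.10 (exact p = 0.325), 0.11 (exact p = 0.429) and 0.18 (exact p = 0.198). All 5 nPM males lay above the control male median for Grin1 and for Grin2c, within overlapping ranges. Grin2d differed by 0.31 (-0.42 to 1.04), and by -0.01 without nPM male 1. Grin3a differed by 0.01, by -0.17 without nPM male 1 and by 0.20 without control male 1. In mean log2 CPM these 2 genes differed by 0.31 (exact p = 0.484) and 0.0027 (exact p = 0.984). Thus the Grin2d difference in males rested on nPM male 1, and that of Grin3a was near 0 and had no settled sign.

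In females alone, 0 of 6 members had p under 0.005 by limma-voom, against 0.0909% of all genes (18), and 0 of 6 had p under 0.05, against 1.99% of all genes, with 0 of 6 also by edgeR and DESeq2. By limma-voom Grin1 differed by 0.01, Grin2a by 0.04, Grin2b by -0.09 and Grin2c by 0.09. Their differences in mean log2 CPM were -0.0083 (exact p = 0.897), 0.026 (exact p = 0.897), -0.11 (exact p = 0.413) and 0.052 (exact p = 0.833), so the sign for Grin1 was not the same by both measures. By limma-voom Grin2b was at -0.16 without nPM female 4 and at -0.0036 without nPM female 5. Without nPM female 3 Grin2a was at -0.053 and Grin2c at -0.014. Grin2a was at 0.15 without nPM female 5, and Grin2c at 0.22 without nPM female 4. Grin2d differed by -0.28 (-0.77 to 0.21) and Grin3a by -0.24 (-0.63 to 0.16) by limma-voom, and by -0.34 (exact p = 0.230) and -0.23 (exact p = 0.333) in mean log2 CPM. Without nPM female 4 the Grin2d difference was -0.12, and without nPM female 1 the Grin3a difference was -0.08. The median over the 6 members was -0.04 in females and 0.14 in males, beside 0.00 and -0.00 over all genes.

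Whether the exposure differences were unlike between the sexes was tested by the interaction, male difference minus female difference. By limma-voom 0 of 6 members had p under 0.005, against 0.217% of all genes (43), and 0 of 6 had p under 0.05, against 3.79% of all genes, as they did by edgeR and DESeq2. The estimates on the log2 scale were 0.11 for Grin1, 0.21 for Grin2a, 0.22 for Grin2b, 0.10 for Grin2c, 0.60 for Grin2d (-0.28 to 1.48) and 0.27 for Grin3a. All 6 estimates were above 0, with a median of 0.22 beside 0.01 over all genes, and each interval included 0. Leaving out 1 library moved them: without nPM male 1 the estimate was 0.28 for Grin2d and 0.080 for Grin3a, and without nPM female 5 it was 0.093 for Grin2a and 0.12 for Grin2b. Without control male 1 Grin1 was at 0.048, and Grin2c was at -0.037 without nPM female 4 and at -0.04 without both of these libraries. No pair of groups that differed by exposure was free of overlap for any member: 0 of 6 in males, where 0.667% of all genes did not overlap, and 0 of 6 in females, where 0.364% did not.

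**Figure D3:**
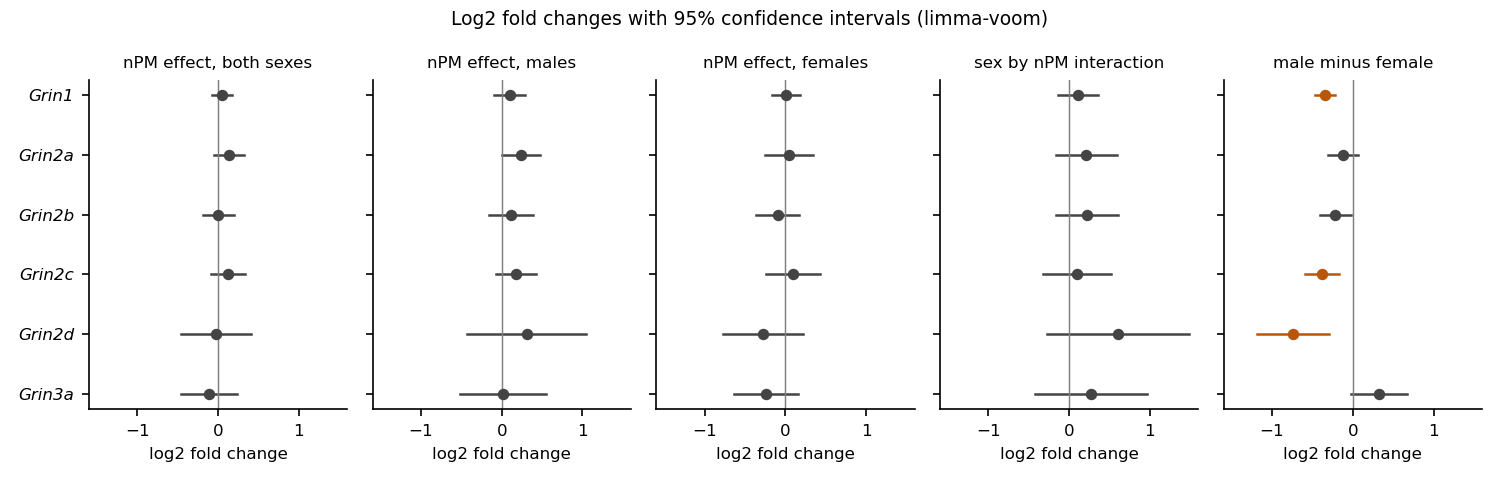
Log2 fold change of each member (point) with its 95% confidence interval (line) in the 5 comparisons by limma-voom; orange marks an adjusted p under 0.05. The exposure and interaction intervals include 0 apart from Grin2a in males, which begins at 0.01, and the orange points are Grin1, Grin2c and Grin2d in the comparison of the sexes.

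The comparison of males with females, with exposure as a covariate, gave the differences that passed the thresholds. Grin1, Grin2c and Grin2d were lower in males, Grin2a and Grin2b had estimates below 0, and Grin3a had an estimate above 0. By limma-voom 3 of 6 members had p under 0.005, against 31.1% of all genes (6147), and 3 of 6 had an adjusted p under 0.05, against 40.4% of all genes (8005). All 3 were lower in males, as were 21.6% of all genes (4280), and 0 of 6 were higher, against 18.8% (3725). With so many genes called, counts of this size among 6 genes single out nothing about the receptor. In bulk tissue, fewer cells that express a gene and less RNA in each of them cannot be told apart.

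Grin1 differed by -0.34 ± 0.0582 (SE) on the log2 scale (95% interval -0.46 to -0.22, adjusted p = 0.000115, limma-voom), and 10 of 10 males lay below the median of the females of their exposure. Grin2c differed by -0.38 ± 0.0999 (-0.59 to -0.18, adjusted p = 0.00425), again with 10 of 10 males below that median. Grin2d, the rarest member, differed by -0.74 ± 0.212 (-1.18 to -0.30, adjusted p = 0.00819), with 9 of 10 males below it. The exception was nPM male 1, without which the difference was -0.90. Grin2d had p of 0.00612 by edgeR, which is over the study's threshold, with an adjusted p of 0.0190. By limma-voom its p was also just over it without control female 1 (0.00515, adjusted p = 0.0170), control female 3 (0.00521, adjusted p = 0.0183) or nPM male 2 (0.00519, adjusted p = 0.0181). Grin2b differed by -0.22 (-0.41 to -0.03, adjusted p = 0.0631) with 7 of 10 males below the median, and Grin2a by -0.12 (-0.31 to 0.07, adjusted p = 0.312) with 6 of 10. Without control male 1 the Grin2a difference was -0.073. Grin3a differed by 0.32 (-0.02 to 0.67, adjusted p = 0.123), and 4 of 10 males lay above the median of the females of their exposure. The median over the members was -0.28, beside 0.02 over all genes.

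Among controls, 2 of 6 members, Grin1 and Grin2d, did not overlap between the sexes, against 19.8% of all genes, and both were lower in males. The mitochondrial share of counts did not overlap there either, at 13.5% to 14.3% in control males and 11.1% to 13.3% in control females, and its part was not tested. In nPM samples it was 11.4% to 13.9% in males and 12.1% to 15.7% in females. Among nPM samples 0 of 6 were free of overlap, against 11.1% of all genes. Without control male 1 and nPM female 4 the differences were -0.33 for Grin1, -0.45 for Grin2c and -0.79 for Grin2d, and these 3 kept an adjusted p under 0.05. The 3 members that were lower in males were also the 3 with the highest GC given above. With the GC trend of each sample removed they differed by -0.30, -0.33 and -0.70, with adjusted p of 0.000988, 0.00102 and 0.00624 by limma-voom. Age and sex go together here, and with age in weeks as a covariate 0 of 6 members passed either threshold, where 8 genes in all had an adjusted p under 0.05. Grin1 then differed by -0.01, Grin2c by -0.27 and Grin2d by -0.79, and the differences of Grin2a, Grin2b and Grin3a turned sign.

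Cell type markers moved between the sexes too. At an adjusted p under 0.05, 4 of 7 astrocyte markers and 3 of 5 microglia markers were higher in males and 3 of 5 endothelial markers were lower, beside 18.8% of all genes higher and 21.6% lower. Of 6 oligodendrocyte markers 1 was higher and 0 lower, with a median log2 difference of 0.22. Of 6 neuron markers (Rbfox3, Snap25, Syt1, Slc17a7, Neurod2 and Neurod6), 2 were lower in males and 0 higher, with a median log2 difference of 0.02. Not all of them are confined to excitatory neurons, so they do not measure that cell type alone. Of 8 interneuron markers 1 was higher and 0 lower, and of the 14 hippocampal field markers (CA1, CA3 and dentate gyrus) 1, in the dentate gyrus, was higher, counts that lie at or under those shares of all genes. The dentate gyrus markers nevertheless had a median log2 difference of -0.18, on the other side of 0 from that 1 gene. For CA1 and for CA3 the median was -0.03. The summed level of the 6 neuron markers ran from 2514 to 4391 CPM over the samples, with Snap25 the most abundant and none at 0. Its part in the differences of the members was not tested.

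The pathway around the receptor was followed with a list of 79 genes, Grin3b and 5 functional groups, of which 71 passed the filter. By limma-voom 0 of 71 had p under 0.005 in both sexes together, in males, in females or in the interaction, and at p under 0.05 the counts were 1, 0, 1 and 1, beside 2.10%, 4.28%, 1.99% and 3.79% of all genes. edgeR and DESeq2 gave the same counts at both levels. The 2 smallest p in both sexes belonged to Lin7a, part of the complex through which Kif17 carries GluN2B (log2 difference -0.20), and Ppp3ca, a catalytic subunit of calcineurin (0.11). In males they belonged to Dlg1, the scaffold SAP97 (-0.23), and Slc1a5, a carrier of neutral amino acids (-0.65), and in females to Camk2d, a CaM kinase II subunit (-0.50), and Slc1a5 (0.57). In the interaction they belonged to Slc1a5 (-1.20) and Ptpn5, the phosphatase STEP that acts on GluN2B (0.39). The Slc1a5 estimate had p under 0.005 without nPM male 3 (-1.46), without nPM female 4 (-1.35) and without control male 1 and nPM female 4 (-1.41), with adjusted p of 0.971, 0.915 and 0.772 by limma-voom.

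Between the sexes 33 of 71 list genes had an adjusted p under 0.05, 14 higher and 19 lower in males, beside 40.4% of all genes, 18.8% higher and 21.6% lower, and the median log2 difference was -0.03, beside 0.02 over all genes. Of 22 scaffold and trafficking genes, which anchor the receptor beneath the synapse, 2 were higher and 10 lower in males, beside 18.8% and 21.6% of all genes, with a median of -0.24. Those lower at p under 0.005 included Shank1 (-1.52), Shank3 (-0.83), Shank2 (-0.62), Dlgap2 (-0.69), Dlgap4 (-0.51), Dlg4 (-0.49), the gene of PSD-95, Ephb2 (-0.37) and Kif17 (-0.32), the motor that carries GluN2B. Lin7c (0.46) and Lin7a (0.25) were higher.

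Of 19 calcium effectors, which act on the calcium that the channel admits, 5 were higher and 6 lower, with a median of 0.11, again beside 18.8% and 21.6% of all genes, shares that stand beside the counts of the groups that follow too. Among the higher were the calmodulin genes Calm2 (0.38) and Calm3 (0.23), Creb1 (0.35), a transcription factor of activity-driven genes, and Ppp3r1 (0.21), the regulatory subunit of calcineurin. Lower were Nos1ap (-0.67), Crtc1 (-0.58), Camk2a (-0.55), the kinase that binds GluN2B, Kalrn (-0.42), Tiam1 (-0.28) and Rasgrf1 (-0.22). Of 15 kinases and phosphatases 4 were higher and 3 lower, with a median of -0.03. Prkacb (0.42), Csnk2a1 (0.29), Cdk5r1 (0.21) and Cdk5 (0.18) were higher at p under 0.005, and Ptk2b (-0.40) was among the lower. With age in weeks as a covariate the differences of Kalrn, Rasgrf1 and Ptk2b turned sign. In that fit 8 genes in all had an adjusted p under 0.05. With each sample left out in turn p was under 0.005 in 19 of 20 fits for Cdk5 and Cdk5r1, in 10 for Kif17, in 7 for Lin7a and Ppp3r1 and in 5 for Tiam1. Of 10 co-agonist genes tested 3 were higher and 0 lower, led by Phgdh (0.38), the first enzyme of serine synthesis, and of 5 kynurenine genes tested 0 passed, with 0 also at an unadjusted p under 0.05.

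**Figure D4:**
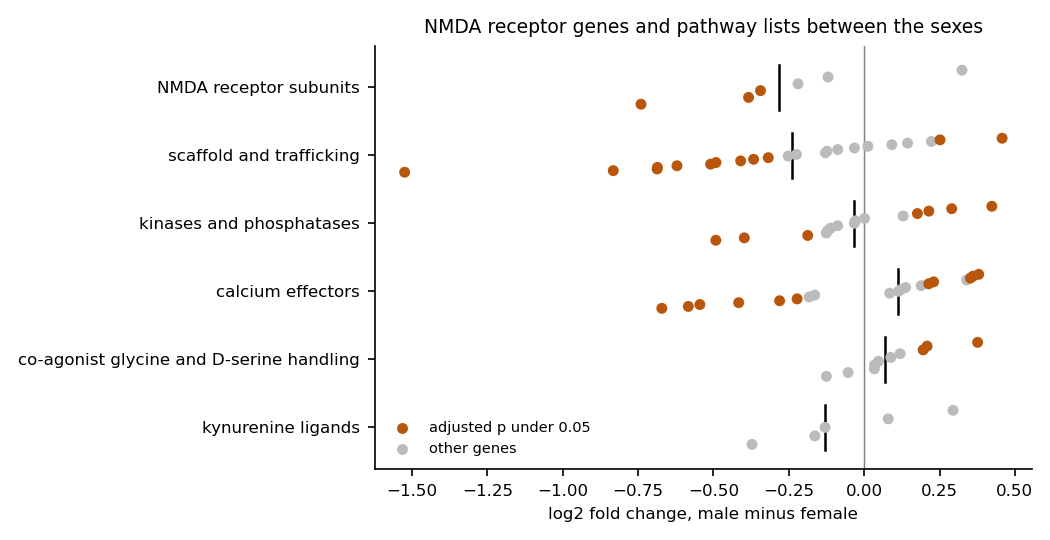
Log2 fold change, male minus female, of the members and of each pathway gene tested (points), by group, with the group median (line); orange marks an adjusted p under 0.05 by limma-voom. Scaffold genes lie mostly left of 0, down to -1.52 for Shank1, and calcium effectors lie on both sides.

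The genes whose pattern was most like each member were sought among 15006 other protein-coding genes, by Pearson r of log2 CPM after group means were removed, over 20 samples. For Grin1 they were Nos1ap (r = 0.91), which also belongs to the pathway list, Tsc2 (0.91) and Tmem8b (0.90). For Grin2a they were Epha6 (0.90), Prickle2 (0.89) and Rasgrp1 (0.88), and for Grin2b they were Epha5 (0.93), Gnaq (0.92) and Cacna1e (0.92), a calcium channel gene. For Grin2c they were Tmcc2 (0.88), Src (0.87), a kinase of the pathway list, and Agrn (0.87), and without the 2 farthest samples these were 0.75, 0.69 and 0.73. By Spearman's rho the top 3 shared 1 gene with these for Grin1, Grin2a, Grin2c and Grin2d, 2 for Grin2b and 3 for Grin3a.

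For Grin2d the most alike were Trim67 (0.89), Cacna1g (0.88), the gene of a T-type calcium channel that thalamic relay cells express, and Agap1 (0.88). Summed thalamic markers were 116, 96.1, 156, 102 and 67.2 CPM in the control females and 80.4, 80.1, 71.7, 71.0 and 87.4 CPM in the nPM females. They were 61.9, 107, 85.9, 129 and 84.3 CPM in the control males and 205, 103, 70.7, 104 and 89.3 CPM in the nPM males. In each of the 4 groups the sample with the highest Grin2d also had the highest thalamic sum, but control male 2, at 107 CPM, had the lowest Grin2d of its group. All 6 thalamic genes passed the filter, none was at 0, and the most abundant was Slc17a6, which hippocampal cells also express, at a mean of 49.6 CPM. The sums leaned on this gene, and the markers did not move as one. In nPM male 1 Slc17a6 made up 147 of the 205 CPM. Tcf7l2 (12.6 CPM), Lef1 (11.8 CPM) and Tnnt1 (4.34 CPM) were also highest there of the 20 samples, but Ramp3 was at its lowest and Prkcd was at 27.9 CPM, against 93.8 CPM in control female 3. The sum of the interneuron markers was highest in nPM male 1 as well, at 845.5 CPM against 522 to 734 CPM elsewhere. These markers did not move as one either. Gad1 (417.3 CPM) and Gad2 (286.2 CPM) were highest there of the 20 samples. Lhx6 (5.69 CPM) was at its lowest there, and Vip was at 9.59 CPM, against 37.8 CPM in control female 2. The median log2 difference of the 6 markers by exposure was 0.31 in males, -0.22 in females and 0.59 in the interaction, close to the 0.31, -0.28 and 0.60 of Grin2d, with 0 of 6 at p under 0.005 in each. The part of thalamic or interneuron RNA in the Grin2d values was not tested. Between the sexes 0 of 6 thalamic markers passed an adjusted p of 0.05 by limma-voom. Their median log2 difference there was 0.06, beside -0.74 for Grin2d.

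For Grin3a the most alike were Tmtc4 (0.97), Cntnap4 (0.91), which interneurons express, and Cib2 (0.90). With the 2 farthest samples left out Tmtc4 was at 0.95, and Spearman's rho was 0.91, so this likeness did not rest on those 2 samples. Both genes were highest above their group mean in control male 1, by 0.75 for Grin3a and 0.63 for Tmtc4 on the log2 scale, and next in nPM male 1, by 0.68 and 0.51. Both were lowest in nPM female 1, at -0.60 and -0.48. These are the libraries in which markers of cerebellum, thalamus and striatum stood highest, in that order, and each was extreme in other markers too. In nPM male 1 the interneuron sum was the highest, 845.5 CPM, though its genes did not move as one, as given above. Control male 1 had the lowest dentate gyrus sum, 300.4 CPM, and the highest sum of the 6 neuron markers, 4391 CPM. Syt1 (1893 CPM) and Snap25 (1809 CPM) were highest there of the 20 samples, but Rbfox3 (62.1 CPM) was at its lowest. In nPM female 1 the dentate gyrus sum, 743 CPM, and the choroid plexus sum, 8280 CPM, were the highest. The sum of the neuron markers, 2514 CPM, was the lowest. Snap25 (966.6 CPM), Syt1 (878.3 CPM) and Neurod6 (122.5 CPM) were at their lowest there. Neurod2 was at 63.76 CPM, against 39.15 CPM in control male 2. The part of any of these in the Grin3a values was not tested. Of the 3 cerebellar markers 2 passed the filter and 2 were at 0 in some samples, Cbln3 being the most abundant, and of the striatal markers all 6 passed and none was at 0, Ppp1r1b being the most abundant.

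**Figure D5:**
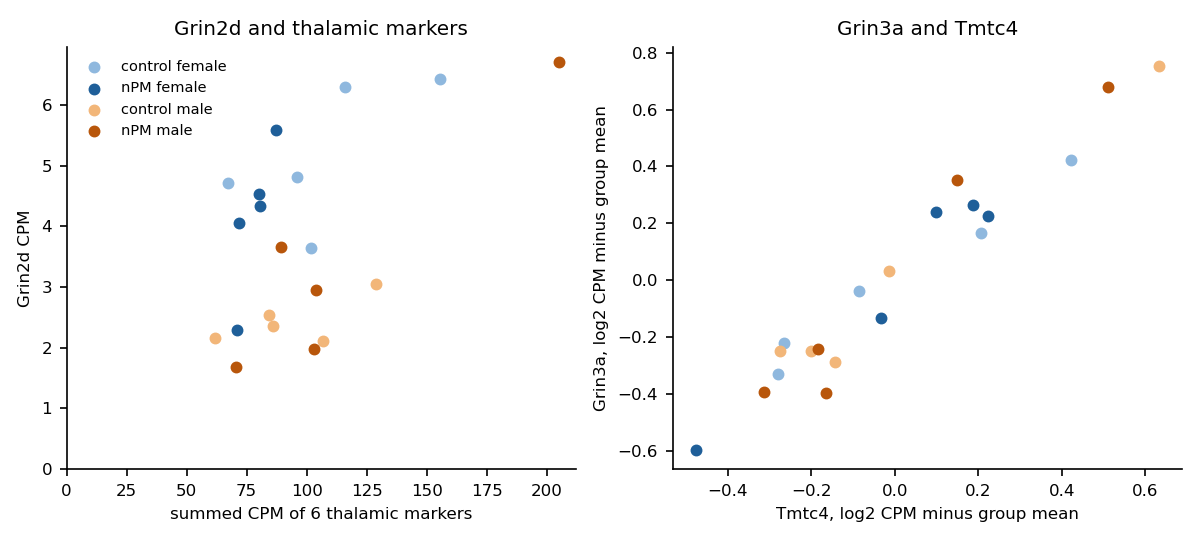
Left, Grin2d (CPM) against the summed CPM of 6 thalamic markers in the 20 samples, by group; nPM male 1 is at the top right, at 6.70 and 205 CPM. Right, Grin3a against Tmtc4, each as log2 CPM minus its group mean; the points follow a line over the whole range (r = 0.97, n = 20).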

How the data were processed

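The study extracted RNA from the right hippocampus, depleted ribosomal RNA and sequenced the libraries. The authors trimmed adapters where needed, aligned reads to mm10 with HISAT2 and deposited whole-number counts per gene (featureCounts 1.5.0-p3). The authors also deposited gene lengths and a mean RPKM per gene, which was checked against the counts and used in no test. From the counts, TMM factors (0.957 to 1.06) and a filter over the 4 groups (edgeR 4.0.16) left 19797 genes, which were fitted with limma-voom (limma 3.58.1, R 4.3.3), and p-values were adjusted over all of them by the Benjamini-Hochberg method. Scripts were tested on simulated data. Same-group pairs (40) differed by 14.1 to 76.6 times counting noise in squared difference. Intervals hold 95% confidence. Alternatives were edgeR, DESeq2 1.42.0, RLE factors, other filters, quality weights, a replicate block, an age covariate and leaving out each sample. GC trend removal, transcript lengths and leaving out control male 1 with nPM female 4 were chosen after seeing the data. Coding sequences came from Gencode M21 (Biopython 1.88 located the motif). Named genes are the 6 members, the 3 genes most like each, pathway genes with p under 0.005 and the 2 with the smallest p per comparison, and some of these genes and coding stretches are not reported here. The members and lists were chosen with earlier results of these data known.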

Additional observations from a re-analysis of the deposited data

Results flagged for a closer look

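Within each group, the gap between the most extreme sample and its neighbour was divided by the range of the group and compared with the 95% critical value of Dixon's test, over 48 sets of 5 samples. The value was above it in 4 of them, where chance gives about 1 in 20. For Grin1 on the log2 scale it was 0.882 in control females, whose sample 5 was the highest. For Grin2c on the log2 scale it was 0.775 in control males, whose sample 5 was the highest. For the share of Grin2d in the Grin2 sum it was 0.719 in nPM males, whose sample 1 was the highest and also had the highest thalamic marker sum, 205 CPM. For the ratio of Grin1 to the Grin2 sum it was 0.738 in control females, whose sample 1 was the highest. Grin1os, annotated antisense to Grin1 and used in no comparison, had 282 counts in nPM female 4, above the control samples, whose highest had 32. The reasons for these values were not tested.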

How the results depend on the processing

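In the exposure and interaction comparisons no member passed p under 0.005 or an adjusted p under 0.05 under any alternative tried, or without any sample (lowest 0 and highest 0 of 6 members). Between the sexes the count of members was 2 to 3 of 6 at p under 0.005 and 3 to 4 at an adjusted p under 0.05 over the fits that left out each sample. It was 2 at p under 0.005 by edgeR and with the replicate block, owing to Grin2d, and 4 at an adjusted p under 0.05 with the block, with a mean CPM of at least 1 and with protein-coding genes only, Grin2b being the addition. With age as a covariate it was 0 at both thresholds, sex and age cannot be told apart, and the log2 differences of Grin2a (0.38), Grin2b (0.35), Grin3a (-0.15), Kalrn (0.055), Ptk2b (0.022) and Rasgrf1 (0.15) turned sign. The replicate block gave 0 members in the 4 other comparisons, and 20, 35, 22, 43 and 5739 genes with p under 0.005, although replicate numbers do not pair the samples: over 10 pairs the correlation ran from -0.36 to 0.16. Differences near 0 turned sign elsewhere, and the cause was not tested: in both sexes Grin2b was -0.012 with quality weights and -0.047 without control male 1 and nPM female 4, and Grin2d was 0.076 by edgeR, 0.077 by DESeq2, 0.0069 in 1 fit of the 4 groups and 0.037 without those libraries. In females Grin1 was -0.0045 with protein-coding genes only and -0.0082 in 1 fit of the 4 groups, and Grin2c in the interaction was -0.044 without those libraries. With transcript lengths, which by construction rescale each gene, the Grin2a and Grin2b shares moved to 49.6% and 46.2%, their ratio to 1.08 and the ratio of Grin1 to the Grin2 sum to 0.481. Leaving out each sample kept the Grin2a share at 45.0% to 45.6%, the Grin2b share at 49.9% to 50.4%, the Grin2c share at 3.90% to 4.07% and the Grin2d share at 0.478% to 0.522%. It kept the Grin2a to Grin2b ratio at 0.898 to 0.919 and the Grin1 to Grin2 sum ratio at 0.234 to 0.240. With each sample left out in turn, log2 differences that turned sign ran in both sexes from -0.032 to 0.049 for Grin2b and from -0.18 to 0.070 for Grin2d, and in males from -0.0081 to 0.51 for Grin2d and from -0.17 to 0.20 for Grin3a. In females they ran from -0.041 to 0.041 for Grin1, from -0.053 to 0.15 for Grin2a and from -0.014 to 0.22 for Grin2c, and in the interaction from -0.037 to 0.20 for Grin2c. Those that kept their sign ran in both sexes from 0.014 to 0.069 for Grin1, from 0.087 to 0.19 for Grin2a, from 0.079 to 0.20 for Grin2c and from -0.21 to -0.031 for Grin3a. In males they ran from 0.040 to 0.16 for Grin1, from 0.16 to 0.32 for Grin2a, from 0.044 to 0.19 for Grin2b and from 0.10 to 0.28 for Grin2c, and in females from -0.16 to -0.0036 for Grin2b, from -0.42 to -0.12 for Grin2d and from -0.31 to -0.081 for Grin3a. In the interaction they ran from 0.048 to 0.16 for Grin1, from 0.093 to 0.31 for Grin2a, from 0.12 to 0.29 for Grin2b, from 0.28 to 0.80 for Grin2d and from 0.080 to 0.45 for Grin3a. Counts of all genes with p under 0.005 for exposure moved by more than 1.5 times with several settings. In both sexes they went from 28 of 19797 genes tested to 71 of 35001 with every gene of at least 1 count kept. Over the fits that left out a sample they ran from 17 (control female 1) to 47 (nPM female 4) in both sexes, from 23 (nPM male 5) to 78 (nPM male 4) in males, from 10 (nPM female 5) to 48 (nPM female 4) in females and from 24 (control female 3) to 77 (control female 1) in the interaction. Depth limits Grin2d most, with as few as 42 counts.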
